A study of Mus musculus with 30 samples.

Results

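The livers of 10 male Avy/a mice were compared between 4 animals with high and 6 animals with low signal of Arntl, the clock gene also called Bmal1. The rule took the deposited array signal as log2(signal + 16) and placed a mouse on the Arntl-high side where its liver Arntl lay above the mean of the 10 livers. The Arntl-high mice were mottled 1, heavily mottled 1, mottled 2 and slightly mottled 2. The Arntl-low mice were heavily mottled 2, yellow 2, slightly mottled 1, yellow 1, pseudoagouti 2 and pseudoagouti 1. These 10 liver arrays belong to a set of 30, with kidney and brain of the same mice making up the rest. Because a liver value chose the sides, every difference between the 4 and the 6 livers is given as a description, without a test. Tests between the sides were made only in kidney and brain.

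All mice carried the viable yellow allele Avy over the nonagouti allele a, so no group lacked Avy. They were sampled at weaning on day 22, when coat colour was scored in 5 classes of 2 mice each, and the study searched for genes that vary between such genetically alike mice. The colony was inbred by sibling mating with heterozygosity for Avy enforced, and the allele arose in C3H/HeJ. Both sides had a mean coat step of 2 on a scale from 0 (yellow) to 4 (pseudoagouti), and each held both mouse numbers of the labels equally (2 and 2 against 3 and 3). No yellow or pseudoagouti mouse was on the Arntl-high side. Diet and water were freely available. The hour at which tissue was taken and the litter are not given in the sources used here, so the sides are not a labelled treatment.

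Arntl pairs with Clock or Npas2 to activate genes through E-box elements, among them the Per and Cry repressors, the nuclear receptors Nr1d1 and Nr1d2, and the PAR bZIP factors Dbp, Tef and Hlf. Nr1d1 and Nr1d2 in turn repress Arntl, Npas2, Clock, Cry1 and Nfil3 through ROR elements, so that these genes run in the opposite phase to Dbp. In liver the same circuits set daily rhythms in bile acid synthesis, haem synthesis, glycogen and lipid handling, and feeding time drives many of them as well.

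The 7 promoters printed next belong to genes whose liver signal did not overlap between the sides, apart from Nfil3, and were chosen because they hold motifs that these factors are known to bind. They are the 250 bases before a RefSeq transcription start in GRCm38.p6, written 5′ to 3′ on the gene's strand, with each match in capitals and a match on the other strand shown as its reverse complement. The motifs searched on both strands were CACGTG (E-box), TTATGTAA and TTACGTAA (D-box, bound by the PAR bZIP factors and Nfil3), and TAGGTCA and TGGGTCA (core of the ROR element). Per3 lies at chr4:151044666-151044915 on the minus strand, Tef at chr15:81811164-81811413 on the plus strand and Coq10b at chr1:55052520-55052769 on the plus strand. Tspan4 lies at chr7:141476130-141476379 on the plus strand, Ppp1r3c at chr19:36736605-36736854 on the minus strand, Nfil3 at chr13:52981040-52981289 on the minus strand and Slc37a4 at chr9:44396696-44396945 on the plus strand.
Per3: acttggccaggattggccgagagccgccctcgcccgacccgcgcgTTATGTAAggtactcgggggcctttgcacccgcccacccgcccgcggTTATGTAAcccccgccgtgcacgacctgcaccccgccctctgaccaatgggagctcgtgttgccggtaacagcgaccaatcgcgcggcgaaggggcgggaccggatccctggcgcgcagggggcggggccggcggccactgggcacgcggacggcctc
Tef: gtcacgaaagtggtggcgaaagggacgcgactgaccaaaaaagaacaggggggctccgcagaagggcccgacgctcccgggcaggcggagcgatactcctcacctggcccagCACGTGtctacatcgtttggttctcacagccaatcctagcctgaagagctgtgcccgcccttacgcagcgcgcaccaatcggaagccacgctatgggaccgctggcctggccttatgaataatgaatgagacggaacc
Coq10b: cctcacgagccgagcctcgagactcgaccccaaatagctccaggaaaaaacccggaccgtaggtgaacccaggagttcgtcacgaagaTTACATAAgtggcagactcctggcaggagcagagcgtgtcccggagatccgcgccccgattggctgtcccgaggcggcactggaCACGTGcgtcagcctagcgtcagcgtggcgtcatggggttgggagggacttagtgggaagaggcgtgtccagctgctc
Tspan4: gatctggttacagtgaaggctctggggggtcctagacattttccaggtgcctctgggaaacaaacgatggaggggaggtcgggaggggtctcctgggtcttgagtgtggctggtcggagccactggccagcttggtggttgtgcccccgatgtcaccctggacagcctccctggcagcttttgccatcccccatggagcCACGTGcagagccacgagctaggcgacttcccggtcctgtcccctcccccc
Ppp1r3c: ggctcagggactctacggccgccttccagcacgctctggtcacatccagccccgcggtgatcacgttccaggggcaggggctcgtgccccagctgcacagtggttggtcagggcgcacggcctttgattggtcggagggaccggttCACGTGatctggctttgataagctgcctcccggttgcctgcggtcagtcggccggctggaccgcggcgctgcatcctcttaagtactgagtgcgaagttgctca
Nfil3: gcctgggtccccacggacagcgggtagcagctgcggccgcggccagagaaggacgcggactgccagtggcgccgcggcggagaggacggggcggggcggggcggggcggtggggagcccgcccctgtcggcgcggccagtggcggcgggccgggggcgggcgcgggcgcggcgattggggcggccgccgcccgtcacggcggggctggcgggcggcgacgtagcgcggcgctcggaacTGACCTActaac
Slc37a4: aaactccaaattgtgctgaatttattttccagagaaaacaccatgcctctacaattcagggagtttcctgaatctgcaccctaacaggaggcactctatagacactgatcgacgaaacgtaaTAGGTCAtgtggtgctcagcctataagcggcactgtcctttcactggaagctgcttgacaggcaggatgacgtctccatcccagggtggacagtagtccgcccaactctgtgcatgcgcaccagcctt

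Per3 held 2 D-boxes, whose first bases lay 205 and 158 bases before the start. Coq10b held a D-box at -162 and an E-box at -78. The E-box lay at -138 in this Tef promoter, at -51 in Tspan4 and at -104 in Ppp1r3c. The ROR core lay at -12 in Nfil3 and at -128 in Slc37a4. Tspan4 and Slc37a4 also had windows at other starts, not printed here, which held none of these motifs. Of 32851 RefSeq promoters searched in the same window, 6.02% held the E-box, 0.931% a D-box and 5.38% a ROR core. Among the clock repressors and PAR bZIP factors, 4 of 10 genes with a promoter in the table held an E-box in at least 1 window, against 6.86% of all 27025 genes. The share was also above that of all genes in other lists, such as glucose and glycogen (31.2%), haem and NAD (26.7%), glucocorticoid response (26.7%) and cholesterol (26.3%). It was below that of all genes in drug metabolism (2.86%) and cell cycle (6.67%). In bile acid synthesis, pericentral and immediate early genes it was 0.0%. The windows of Arntl and Dbp held none of these letters. A match describes the letters only, and binding was not measured.

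The side labels were checked on 4 markers. Liver Arntl signal was 1301, 1007, 921.6 and 721.3 in mottled 1, heavily mottled 1, mottled 2 and slightly mottled 2, the order kept for every set of 4 values in what follows. In the 6 Arntl-low livers its lowest, median and highest signals were 130.3, 252.3 and 397.5. The mean of all 10 was 8.77 on the log2 scale. The mouse of each side nearest to it was slightly mottled 2 at 9.53 on the high side and heavily mottled 2 at 8.69 on the low side. The difference, here always the mean log2(signal + 16) of the 4 minus that of the 6, was 1.96 ± 0.27 (SE, n = 4 and 6), a fold of 3.88. Another Arntl probe set overlapped between the sides, with a difference of -0.20.

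Npas2, the partner that can replace Clock, had signals of 187.0, 220.3, 395.9 and 143.8 on the high side and of 17.3 to 53.3 (median 39.35) on the low side. The values did not overlap, although the mean fell below the signal filter used for counts. Dbp, a PAR bZIP activator of detoxification genes, had signals of 200.6, 443.2, 435.4 and 979.7 against 3982 to 6323 (median 4934), a difference of -3.41 ± 0.46 and a fold of 10.7. Every Arntl-high liver was thus below every Arntl-low liver, and a further Dbp probe set differed by -3.39. Nr1d1, a haem-binding repressor also called Rev-erb alpha, was 257.5, 685.2, 142.6 and 195.6 against 375.8 to 893.0 (median 535.4). Here heavily mottled 1 lay inside the low range, so Nr1d1 did not separate the sides. Arntl set the sides itself, and of the other 3 markers Npas2 and Dbp did not overlap. The Nr1d1 difference was -0.17 within mice numbered 1 and -1.83 within those numbered 2.

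**Figure D1:**
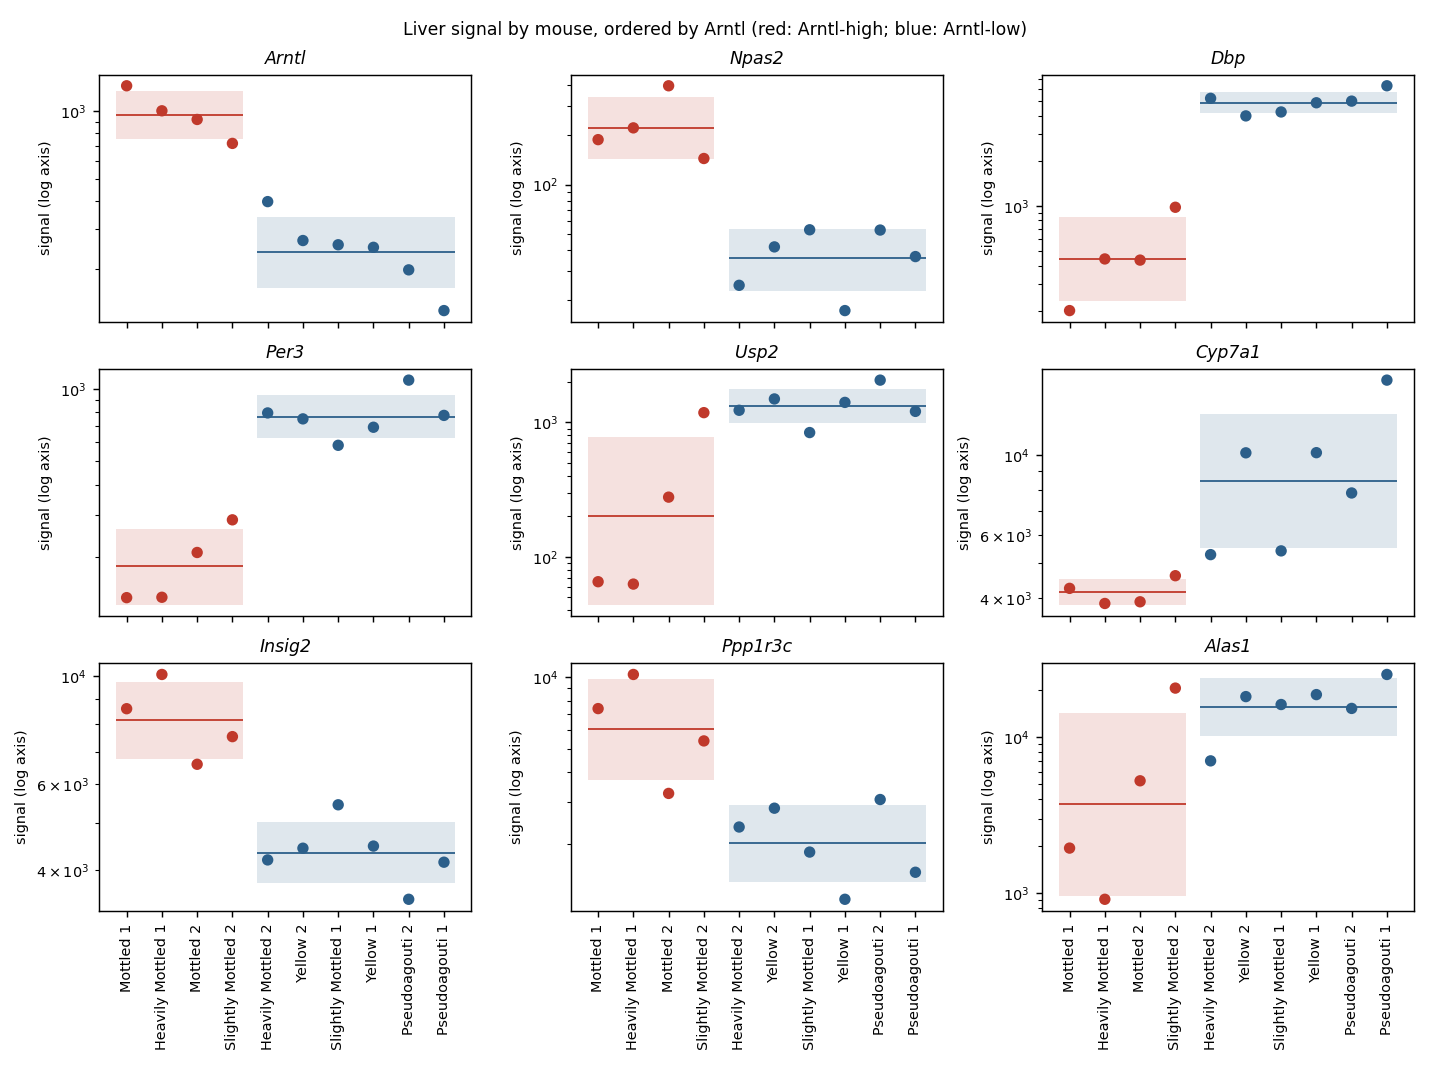
Liver signal (log axes, 1 point per mouse, ordered by Arntl; red Arntl-high, blue Arntl-low; lines and bands are the mean and 1 SD on the log2 scale) of 9 genes. Arntl, Npas2, Dbp, Per3, Cyp7a1, Insig2 and Ppp1r3c do not overlap between the sides, while Usp2 and Alas1 do through slightly mottled 2.

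Across the 22519 probe sets kept in liver, those with a mean at or above the median of all, 140 (0.622%) lay above in every Arntl-high mouse and 207 (0.919%) lay below, 1.54% in either direction. With a difference of at least 1 in addition, 26 (0.115%) lay above and 20 (0.0888%) below. In whole tissue, fewer cells of a type and less RNA per cell cannot be told apart. These counts come from the contrast that the rule used and nothing is read from them. The median difference over all kept probe sets was -0.03, and 90% of the differences, from the 5th to the 95th percentile, ran from -0.45 to 0.36. Leaving out any 1 mouse raised both counts, to between 163 and 422 above and between 252 and 484 below. The highest counts came without slightly mottled 2 for genes above and without mottled 2 for genes below.

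Of 7 listed clock activators and genes of Arntl's phase, 5 were kept. All 5 had a higher mean on the Arntl-high side (Rora by 0.00). The only kept member without overlap was Arntl, beside 0.622% of all kept probe sets that lay above. Because Arntl set the sides, its place was fixed in advance and nothing is read from it. The median difference, with Arntl included, was 1.02. Nfil3, a bZIP repressor that competes with Dbp at D-boxes, had signals of 1179, 969.2, 380.3 and 675.6 against 84.6 to 428.8 (median 153.2), a difference of 2.06 ± 0.47. It overlapped only through mottled 2, which lay below heavily mottled 2. Cry1, a late repressor of Clock and Arntl, was 264.2, 288.6, 591.8 and 700.0 against 139.2 to 352.1 (median 182.5). Its high values were those of the mice numbered 2, and the difference was 1.02 ± 0.39. Clock differed by 0.66 ± 0.21 with overlap, and Rora, an activator at ROR elements, by 0.00 ± 0.27.

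Among the repressors and PAR bZIP factors, 10 of 12 were kept, all 10 had a lower mean on the Arntl-high side, and 5 lay below without overlap, beside 0.919% of all kept probe sets. Their median difference was -1.32. Per3, a period gene, had signals of 135.3, 135.8, 208.7 and 285.5 against 583.7 to 1091 (median 765.0), a difference of -1.98 ± 0.27. Tef was 1280, 1893, 1163 and 1626 against 3070 to 5068 (median 3786), a difference of -1.40 ± 0.20. In both genes every Arntl-high liver lay below the lowest Arntl-low liver.

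Per2 was 108.4, 111.7, 283.0 and 436.1 against 479.3 to 746.0 (median 603.4), a difference of -1.55 ± 0.47. The sides did not overlap, but slightly mottled 2 came close to the lowest of the 6. Nr1d2, the paralogue of Nr1d1, was 1685, 3010, 2459 and 3225 against 4633 to 7757 (median 6015), a difference of -1.23 ± 0.24. Per1 spanned 11.3, 39.8, 241.5 and 555.1 against 324.2 to 763.2 (median 563.3), a difference of -2.14 ± 1.02. The 2 lowest Per1 values, below the liver filter signal of 118, came from the Arntl-high mice numbered 1, and slightly mottled 2 lay inside the low range. Hlf, Cry2 and the repressor Bhlhe40 differed by -0.26, -0.10 and -0.12, each with overlap. Probe sets of a gene did not all give 1 value: the 6 of Per3 ran from -2.11 to 0.08, and others of Per2 (-0.997 and -0.66), Tef (-0.55 and -1.87) and Nr1d2 (-0.94) overlapped between the sides.

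Of 29 clock-controlled liver outputs, a list of genes known as rhythmic in liver, all were kept, 3 lay above in every Arntl-high mouse and 4 below, beside 0.622% and 0.919% of all kept probe sets, shares that hold for each list that follows. The median difference was -0.48, but -0.02 when probe sets with shared-sequence suffixes were left out. The 3 above were Tubb2a, a tubulin (1.19 ± 0.28), Clpx, the mitochondrial protease chaperone (0.88 ± 0.14), and Cldn1, a tight junction claudin (0.81 ± 0.15). Coq10b, a coenzyme Q binding protein, had signals of 1146, 1106, 1126 and 2463 against 2839 to 4513 (median 3480), a difference of -1.34 ± 0.29. Its 3 lower values were almost equal and slightly mottled 2 stood between them and the other side. Below as well were Wee1, a mitotic kinase under E-box control (-0.81 ± 0.17), Tspan4, a tetraspanin (-0.67 ± 0.18), and Dclre1a, a DNA repair nuclease (-0.61 ± 0.11).

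Usp2, a deubiquitinase, had signals of 65.2, 62.6, 277.8 and 1182 against 840.3 to 2064 (median 1320), a difference of -2.62 ± 0.95. Mottled 1 and heavily mottled 1 were far below all other livers, with signals under the liver filter signal of 118, and slightly mottled 2 was inside the low range. Noct, a rhythmic phosphatase of lipid handling, had 756.1, 461.0, 3277 and 3827 against 1144 to 4220 (median 3083), a difference of -0.92 ± 0.80. Mottled 1 and heavily mottled 1 lay below every other liver, while mottled 2 and slightly mottled 2 lay inside the low range. Hsd3b5 had 4978, 14350, 959.3 and 808.4 against 926.2 to 2619 (median 1410), with overlap and a difference of 0.95 ± 1.01. Its difference was 2.275 within number 1 and -0.37 within number 2. Ppard, a fatty acid receptor, was 246.1, 122.1, 390.9 and 253.0 against 27.6 to 158.2 (median 71.75), and only heavily mottled 1 overlapped. Its difference was 1.49 ± 0.43, while a dim second probe set differed by -0.04. Most of the Arntl-low Ppard signals lay under the liver filter signal of 118, so the first probe set was kept through the Arntl-high side.

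**Figure D2:**
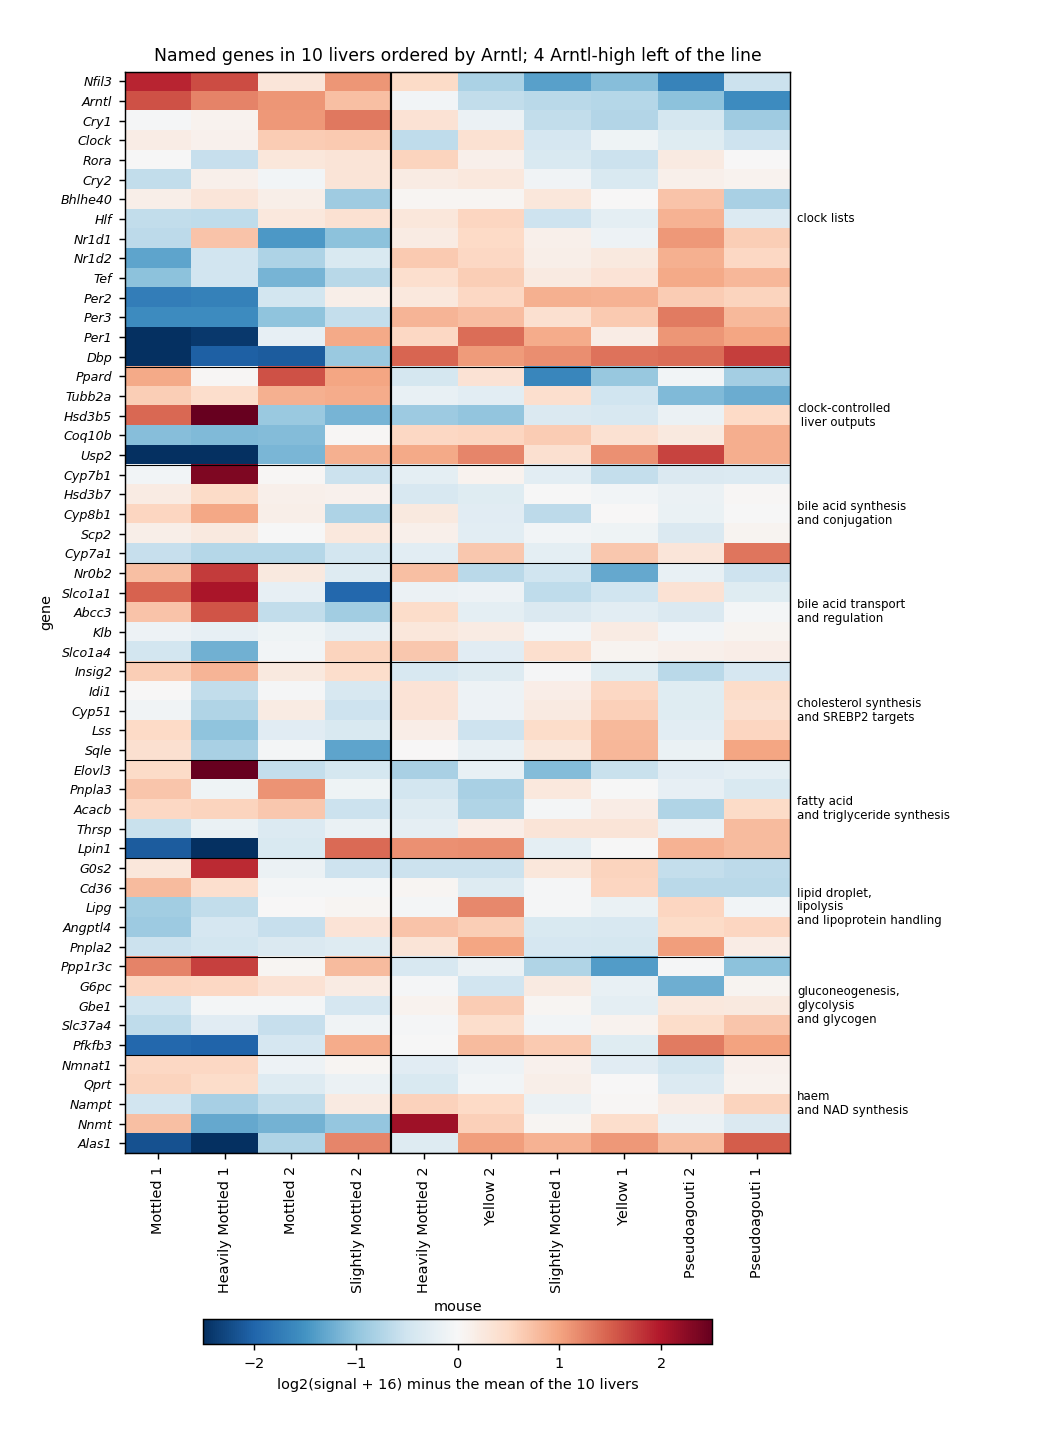
Log2(signal + 16) minus the gene's mean over 10 livers (colour; the strongest colours include values beyond the ends of the scale) for the kept clock genes and up to 5 genes of each of 8 liver lists, with mice ordered by Arntl and the 4 Arntl-high mice left of the line. Dbp, Per3 and Insig2 split at the line, whereas Usp2, Lpin1, Pfkfb3 and Alas1 are lowest in mottled 1 and heavily mottled 1 and reach the low side's level in slightly mottled 2.

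Bile acid synthesis was represented by 15 kept genes of 16, with 1 above, 1 below and a median difference of 0.07. The gene below was Cyp7a1, the rate-limiting enzyme of bile acid synthesis from cholesterol. Its signals were 4263, 3870, 3912 and 4622 on the Arntl-high side and 5289, 8992 and 16140 as the lowest, median and highest on the other. The 4 values were close together, whereas those of the 6 mice were widely spread, with heavily mottled 2 and slightly mottled 1 just above the high side and pseudoagouti 1 the highest. The difference was -1.03 ± 0.26, a fold of 2.04. A second Cyp7a1 probe set differed by -1.02 with overlap.

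Hsd3b7, which acts after Cyp7a1 on the sterol ring, was the gene above, with 19690, 23660, 18650 and 18320 against 12820 to 17230 (median 15700) and a difference of 0.39 ± 0.11. The sides were close, and the direction was opposite to that of Cyp7a1. Cyp8b1, which makes cholic acid, was 6767, 9081, 5136 and 2720 against 2956 to 5528 (median 4409), with overlap and a difference of 0.36 ± 0.39. Cyp7b1, of the alternative pathway, was 620.7, 3339, 664.1 and 442.8 against 426.2 to 692.3 (median 527.0). Its difference of 0.72 ± 0.65 rested on heavily mottled 1, and within the mice numbered 2 it was -0.09. Scp2, a sterol carrier, differed by 0.26 ± 0.10 with overlap, and by 0.03 after quantile normalisation.

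Of the genes of bile acid transport and regulation, 20 of 21 were kept, 1 lay below and the median difference was 0.01. Klb, the co-receptor through which intestinal FGF15 represses Cyp7a1, had 1483, 1404, 1493 and 1379 against 1545 to 1975 (median 1788). The sides did not overlap, with a difference of -0.28 ± 0.07. Nr0b2, the corepressor SHP that lowers Cyp7a1 transcription, was 1712, 3450, 1198 and 810.8 against 407.7 to 1714 (median 707.8), a difference of 1.01 ± 0.52. It overlapped because heavily mottled 2, at 1714, and pseudoagouti 2, at 893.4, lay above slightly mottled 2. The uptake transporter Slco1a1 ran from 12920 in heavily mottled 1 to 783.1 in slightly mottled 2 among the 4 mice, against 2000 to 4008, and differed by 2.24 within number 1 and -1.13 within number 2. Slco1a4, another uptake transporter, differed by -0.49 ± 0.39 and Abcc3, a basolateral export pump, by 0.34 ± 0.59, both with overlap.

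In cholesterol synthesis and the SREBP2 targets, 22 of 27 genes were kept, 1 lay above and none below, with a median difference of -0.09. The gene above was Insig2, which holds the SREBP activator Scap in the endoplasmic reticulum. Its signals were 8583, 10090, 6601 and 7522 against 3488 to 5451 (median 4321), a difference of 0.90 ± 0.16. All 3 Insig2 probe sets separated the sides, the others with differences of 1.08 and 1.10, and the values within number 1 and number 2 were 0.99 and 0.81. Of the synthesis enzymes, Sqle (squalene epoxidase) was 4410, 1921, 3265 and 1345 against 2943 to 6684 (median 3747), a difference of -0.73 ± 0.43. Lss, Cyp51 and Idi1 differed by -0.49 ± 0.37, -0.48 ± 0.26 and -0.43 ± 0.20. Each of these 4 enzymes had at least 1 Arntl-high mouse inside the low range, and their levels were lowest in heavily mottled 1 or slightly mottled 2.

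Fatty acid and triglyceride synthesis had 23 kept genes of 24, with 1 above, none below and a median difference of 0.12, or 0.28 without slightly mottled 2. Elovl5, an elongase of polyunsaturated fatty acids, lay above with 24660, 26010, 23490 and 24080 against 16010 to 21000 (median 17820) and a difference of 0.43 ± 0.06. Lpin1, a phosphatidate phosphatase that also acts as a coactivator in fasting, had 1408, 945.2, 4611 and 15990 against 5041 to 13520 (median 10700). Of its 4 Arntl-high values, 3 lay below all Arntl-low livers and the last lay above all of them, so that the difference of -1.54 ± 0.95 describes neither.

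Elovl3, a very long chain elongase known for a strong rhythm, was 434.8, 4251, 195.8 and 221.9 against 136.5 to 268.4 (median 224.8). The difference of 1.32 ± 1.02 was uneven between the numbers (2.73 within number 1, -0.09 within number 2). Pnpla3, Acacb and Thrsp, which act in triglyceride remodelling, malonyl-CoA synthesis and lipogenic control, differed by 0.66 ± 0.34, 0.50 ± 0.35 and -0.52 ± 0.18, all with overlap.

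Of the genes of lipid droplets, lipolysis and lipoproteins, 17 of 20 were kept and none separated the sides, with a median difference of 0.02. Pnpla2, the main triglyceride lipase, was tightly grouped at 1009, 1066, 1137 and 1176 on the Arntl-high side, but the low side ran from 1089 to 3079 (median 1763). The yellow 1 and slightly mottled 1 livers lay among the 4, and the difference was -0.71 ± 0.27. G0s2, an inhibitor of that lipase, was 1446, 4372, 1073 and 821.6 against 747.3 to 1763 (median 817.5), again with heavily mottled 1 above all other livers. Angptl4, an inhibitor of lipoprotein lipase, differed by -0.66 ± 0.34, the lipase Lipg by -0.59 ± 0.32 and the fatty acid carrier Cd36 by 0.47 ± 0.28.

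For the oxidation of fatty acids and the targets of PPAR alpha, 23 of 28 genes were kept, none without overlap, and a median difference of 0.03. The largest difference was that of Pdk4, the kinase that shuts pyruvate oxidation, with 276.7, 416.0, 340.6 and 476.2 against 176.2 to 281.6 (median 242.6). Its sides overlapped only through mottled 1, and the difference was 0.64 ± 0.20. Fgf21, a hepatic hormone of fasting, had 507.0 and 307.6 in the mice numbered 1 and 183.0 in both numbered 2, against 132.7 to 251.8. Cyp4a14, Acaa1b and Acot2 differed by -0.45 ± 0.15, 0.41 ± 0.14 and 0.39 ± 0.26, all with overlap.

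**Figure D3:**
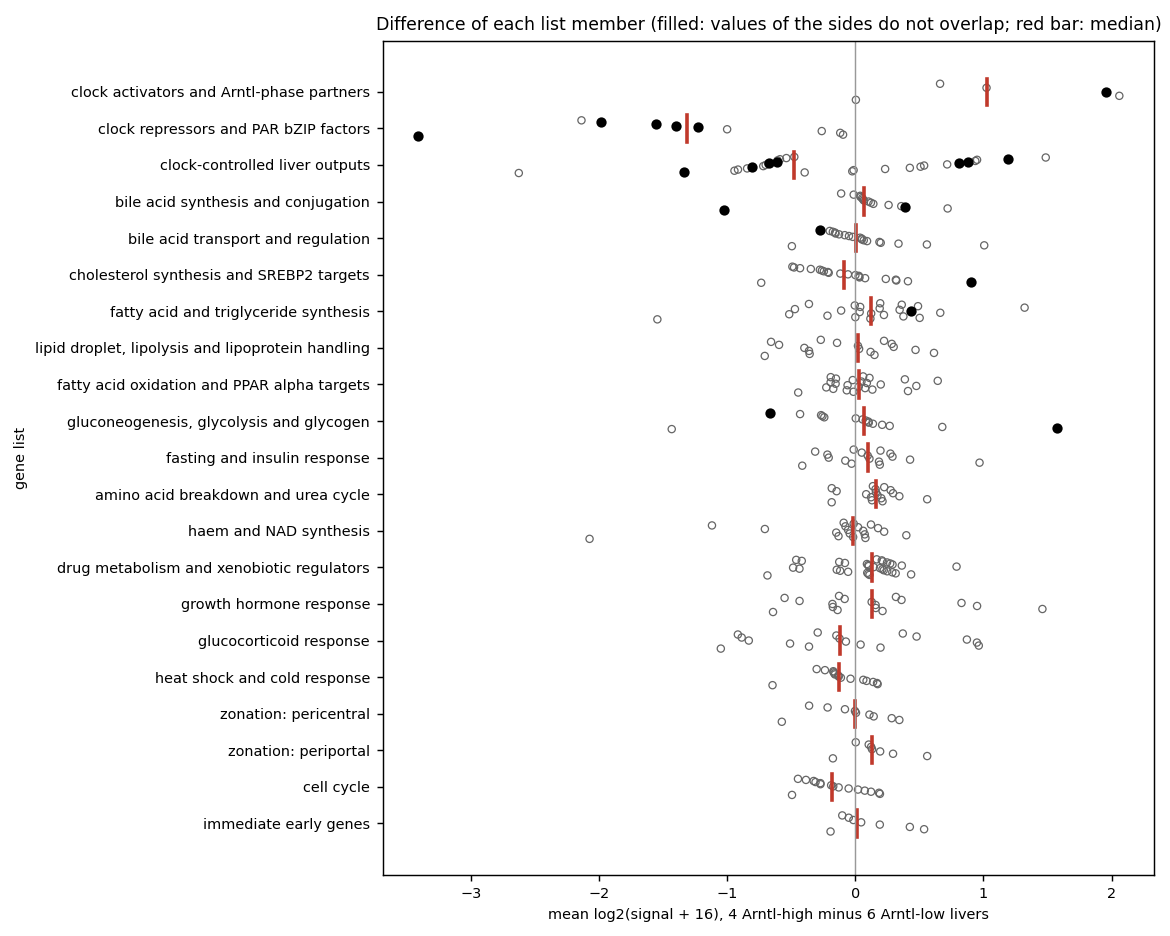
Difference between the sides in liver (x axis, mean log2(signal + 16) of the 4 Arntl-high minus the 6 Arntl-low livers) of each kept list member; filled points do not overlap between the sides and red bars are list medians. Filled points occur in 8 of the 21 lists shown, most in the clock lists, and the median is -1.32 for the repressors and 0.03 for fatty acid oxidation.

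In gluconeogenesis, glycolysis and glycogen, 16 of 19 genes were kept, 1 lay above and 1 below, and the median difference was 0.07. Ppp1r3c, which targets protein phosphatase 1 to glycogen and favours glycogen synthesis, had 7401, 10290, 3263 and 5417 against 1174 to 3076 (median 2106). The sides did not overlap, with a difference of 1.58 ± 0.41, and a second probe set differed by 1.63. The separation was wide in number 1 (2.54) and narrow in number 2 (0.62). Slc37a4, the transporter that brings glucose 6-phosphate to G6pc, had 3807, 4856, 3966 and 5540 against 5678 to 9625 (median 7131), a difference of -0.66 ± 0.18. G6pc, the last enzyme of glucose release, ran the other way, at 21660, 21580, 19320 and 17250 against 6391 to 17570 (median 13910), and overlapped only because slightly mottled 1 exceeded slightly mottled 2.

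Pfkfb3, which makes the activator of glycolysis fructose 2,6-bisphosphate, was 84.7, 81.6, 278.1 and 732.4 against 303.1 to 941.7 (median 631.1). It followed the order of Usp2, with 3 Arntl-high livers below all others and slightly mottled 2 among the low side, and the difference was -1.43 ± 0.75. Gbe1, the glycogen branching enzyme, differed by -0.43 ± 0.17 and Gys2, the liver glycogen synthase, by -0.48 ± 0.17, both with overlap. Igfbp1, a gene that insulin represses, was 23570, 16890, 23210 and 37260 against 3883 to 31980 (median 11080), a difference of 0.97 ± 0.50. Its low side included values of 31980 in heavily mottled 2 and 25050 in pseudoagouti 1, and none of the 17 kept fasting and insulin genes separated the sides.

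Haem and NAD synthesis had 19 kept genes of 20 and none without overlap. Alas1, the rate-limiting enzyme of haem synthesis, had 1939, 908.8, 5251 and 20710 against 7053 to 25340 (median 17250), a difference of -2.07 ± 1.002. Of the 4, mottled 1, heavily mottled 1 and mottled 2 lay below every Arntl-low liver and slightly mottled 2 above 5 of the 6. The difference was -3.88 within number 1 and -0.27 within number 2. Nampt, the rate-limiting enzyme of NAD salvage, had 1218, 949.6, 1098 and 1968 against 1529 to 2543 (median 2160), a difference of -0.71 ± 0.26, again with slightly mottled 2 as the single Arntl-high liver inside the low range. Nnmt, which methylates nicotinamide, differed by -1.12 ± 0.60, with mottled 1 inside the low range.

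Drug metabolism genes, 32 kept of 37, did not separate the sides at the probe set chosen for the list, although a second probe set of Nr1i2, the pregnane X receptor, lay below with -0.41. Cyp2b10, a CAR target, differed by 0.79 ± 0.42, and the sulfotransferase Sult1d1 by -0.69 ± 0.54. Of the growth hormone genes, 17 of 19 were kept and none separated the sides. Bcl6, a transcriptional repressor, was 1522, 1744, 642.9 and 513.5 against 144.0 to 1957 (median 213.1), with heavily mottled 2 the highest of all livers. Amino acid breakdown and the urea cycle had a median of 0.16, or 0.02 after quantile normalisation. The glucocorticoid list had members in both directions, among them Lcn2, an acute phase lipocalin (-1.05 ± 0.60), and Dusp1, a MAP kinase phosphatase (0.96 ± 0.55), and a median of -0.12.

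Markers of cell types and of liver zones were compared between the same livers. All 9 kept hepatocyte markers had a higher mean on the Arntl-high side, with a median difference of 0.22, or 0.00 after quantile normalisation, and their summed signal ran from 277803 to 315624 against 218540 to 321341. The 13 Kupffer and myeloid markers summed to 27809 to 33133 against 24560 to 28033, and these sums overlapped. Of their means 10 of 13 were higher, with differences from -0.61 to 0.40, and Vsig4 (0.40 ± 0.07) did not overlap. Summed signals of stellate (20141 to 38164 against 28983 to 39815), endothelial (15263 to 18297 against 12791 to 18496), erythroid (2847 to 12234 against 3588 to 9015), cholangiocyte (815.6 to 1176 against 667.4 to 1328), lymphoid (1192 to 1622 against 1254 to 1582) and pancreas markers (3091 to 6013 against 2259 to 3967) overlapped between the sides, and the defining markers Krt19, Krt7, Cd3e, Adipoq, Cpa1 and Umod were dim in liver. Pericentral and periportal hepatocyte genes had median differences of 0.00 and 0.13 and none separated the sides. Their part in the differences of metabolic genes was not tested.

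Outside the lists, the genes with the largest differences among those without overlap were chosen by a ranking on this contrast. Above stood Trp53inp1, a p53-induced autophagy protein (1.65 ± 0.27), Chka, choline kinase alpha of phosphatidylcholine synthesis (1.50 ± 0.31), and Ndrg1, a stress-responsive gene (1.48 ± 0.26). They were joined by Coq8a, of coenzyme Q synthesis (1.43 ± 0.22), Gbp6, an interferon-induced GTPase (1.69 ± 0.48), Rnf125, a ubiquitin ligase (1.63 ± 0.42), and C730049O14Rik, Pnrc1, S100a10 and Lgalsl (1.71, 1.43, 1.35 and 1.30). Pnrc1 was the most even of these, with 6785, 7001, 7051 and 6331 against 1445 to 3502 (median 2741), while 2 of its dim probe sets overlapped. For Chka, another probe set differed by 1.98 with overlap. Further kept probe sets of Coq8a (0.95), Gbp6 (1.44) and S100a10 (0.85) overlapped between the sides, as did one of Trp53inp1 with a smaller difference. Those of Ndrg1 overlapped at 0.94, 1.19 and 1.91, and another at 1.39 did not. Separation of these genes thus held for some of their probe sets only.

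Below stood Cyp17a1, the steroid 17-hydroxylase, with 372.6, 154.9, 354.9 and 247.3 against 405.4 to 1462 (median 1099) and a difference of -1.79 ± 0.39. Nrg4, a ligand of ErbB4, was 35.4, 66.2, 71.5 and 98.5 against 155.2 to 404.0 (median 220.5), a difference of -1.68 ± 0.30, and -0.60 with overlap at a second probe set. Rhbdd2, a rhomboid protein, differed by -1.74 ± 0.27, and by -0.42 with overlap at a second kept probe set. Unc5a, a netrin receptor, Slc16a5, a monocarboxylate carrier, and A930033H14Rik completed the list with -1.40, -1.22 and -1.22. Nrg4 and Rhbdd2 in all 4 Arntl-high mice, and Unc5a, Slc16a5 and A930033H14Rik in some of them, had signals under the filter signal of 118, so these genes were kept through the other side. Their folds on this scale are smaller than those of the signals themselves. With signals this low and no detection calls, the true fold is not known. A second kept probe set of A930033H14Rik differed by -0.85 with overlap.

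The genes most like Arntl were ranked by Pearson r over the 10 livers, which form 2 clusters by construction, so r over all 10 is not given. The r within the 6 Arntl-low livers is a description too, and since the ranking included these 6 livers it is not free of that choice. For the genes that ran with Arntl it was 0.86 for Amdhd1 (histidine breakdown), 0.85 for Lgalsl, 0.89 for the death receptor Fas, 0.75 for Btg1 (an antiproliferative factor), 0.64 for Gldc (glycine cleavage), 0.79 for Chka, 0.83 for Gclc (glutathione synthesis) and 0.78 for Lnx2. For those that ran against it, it was -0.89 for the second Dbp probe set (-0.52 for the Dbp probe set described first), -0.81 for Spata5, -0.99 for Ces4a, a carboxylesterase, -0.72 for Chchd4, -0.83 for Mphosph10, -0.63 for Tef, -0.21 for Per3 and -0.86 for Map7d1. Of these 16, Per3 had the value nearest 0.

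Kidney and brain of the same mice were not used by the rule and allow a test of the sides, though the sides were known from earlier work on these arrays, so the p-values are not independent evidence. In kidney, Arntl signal ran from 456.6 to 570.4 in the Arntl-high mice and from 108.7 to 229.4 in the others, a difference of 1.52. Npas2 (1.77) and Dbp (-1.36) did not overlap either, and each of these 3 had p = 0.00952 in the two-sided exact permutation test, the smallest that 210 splits allow (adjusted p = 0.0152 over 8 tests). The Npas2 mean fell below the signal filter in kidney too, with signals of 138.7 to 243.8 against 12.5 to 73.9. Nr1d1 overlapped in kidney, with -0.44 and an exact p of 0.238 (adjusted 0.317).

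In brain, Arntl ran from 910.1 to 1048 against 411.3 to 818.5, a difference of 0.59, and Nr1d1 from 244.0 to 347.9 against 380.5 to 659.7, a difference of -0.57. Neither overlapped, and both had the smallest exact permutation p of 0.00952 (adjusted 0.0152). Npas2 (0.48, exact p = 0.333) and Dbp (-0.20, exact p = 0.324) overlapped in brain and did not pass, with an adjusted p of 0.333 for each. Whether a gene's difference was unequal between tissues was not tested.

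Over all 22519 probe sets kept in kidney, limma called 0 (0.0%) at an adjusted p under 0.05, and 1234 had an unadjusted p under 0.05. The lowest adjusted p in limma was 0.053, shared by Arntl (1.52 ± 0.21), a Dbp probe set (-1.93 ± 0.27) and Tspan4 (-1.005 ± 0.13). With the replicate number as a block, 4 probe sets (0.0178%) were called, 1 up (0.00444%) and 3 down (0.0133%). These were Arntl (limma adjusted p = 0.0155), both Dbp probe sets (0.00146 and 0.00695) and Tspan4 (0.00695). Tspan4 held an E-box in the window shown but not in its other window. Without that block, leaving out pseudoagouti 2 gave 4 calls, heavily mottled 1 or slightly mottled 2 gave 2, yellow 2 gave 1 and each other mouse 0.

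The metabolic genes that separated the livers did not pass in kidney, where some of them could not be tested because their signal was too low. Per2 (-1.86 ± 0.36), Per3 (-0.95 ± 0.19), Nr1d2 (-0.74 ± 0.15) and Coq10b (-0.77 ± 0.23) had kidney differences on the same side of 0 as in liver, with limma adjusted p of 0.41, 0.43, 0.41 and 0.85. Cry1 lay on the other side of 0 in kidney (-0.59 ± 0.22, against 1.02 in liver). Tubb2a, at 1.19 in liver, differed by 0.02 ± 0.25 in kidney, and neither gene passed. Insig2 (0.05 ± 0.25), Ppp1r3c (0.44 ± 0.52), Slc37a4 (-0.34 ± 0.19), Hsd3b7 (-0.12 ± 0.14) and Elovl5 (-0.09 ± 0.14) did not pass either. Cyp7a1 and Klb lay below the kidney filter. Fat markers also varied between kidneys: the 5 measured of 7 adipose markers summed to 394.7 to 12011 on the Arntl-high side and 125.9 to 7101 on the other. Adipoq ran from 83.7 to 3083 against 3.4 to 2300.1, Ucp1 from 6.0 to 5276 against 3.0 to 2349 and Cidea from 10.5 to 3167 against 5.5 to 1953, with differences of 2.03, 1.60 and 1.49. Their part was not tested.

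In brain limma also called 0 (0.0%), with 4518 probe sets at an unadjusted p under 0.05. The replicate block raised this to 480 (2.13%), 203 up (0.901%) and 277 down (1.23%), and without the block leaving out pseudoagouti 2 gave 163 calls, slightly mottled 2 gave 16, mottled 1 gave 4 and each other mouse 0. Listed genes called with the block were Insig1 (0.75), Hadhb (0.86), Sik1 (0.82), Mcm2 (0.76) and Fos (0.95), which rose, and Hadha (-0.54), Tsc22d3 (-0.66), Mt1 (-0.59) and Mt2 (-0.60), which fell, with limma adjusted p from 0.0471 to 0.04995. No clock gene was among them at the probe set chosen for its list. Per3 differed by 0.45 ± 0.20 in brain, on the other side of 0 from liver, with a limma adjusted p of 0.24 without the block. Brain arrays of the Arntl-high mice had median signals of 150.8 to 205.3 against 138.2 to 152.3. Their Actb 3 prime to 5 prime ratios, a sign of RNA integrity, were 1.52 to 2.26 (median 1.80) against 1.24 to 1.79 (median 1.48), and summed choroid plexus markers, 9 measured of 10, ran from 1341 to 17588 against 3164 to 33747. The part of these in the calls was not tested.

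**Figure D4:**
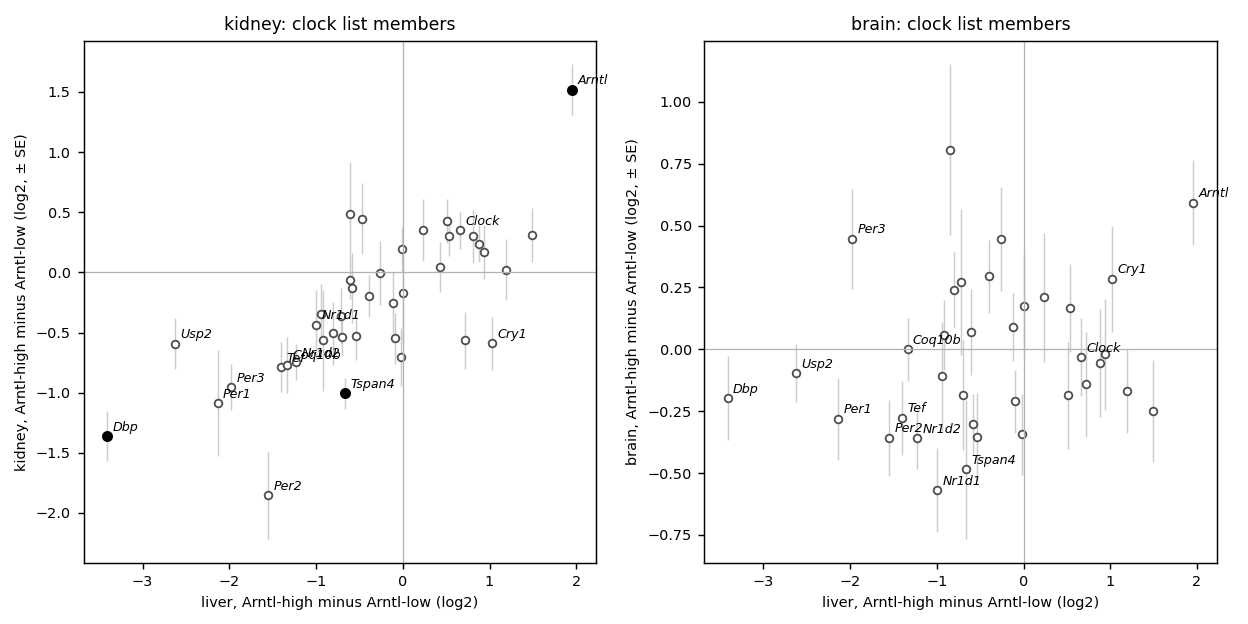
Difference between the sides (log2) in liver (x axis) and in kidney or brain (y axis, ± SE from limma, n = 4 and 6) for members of the 3 clock lists; filled points passed limma with the replicate block. Arntl, Dbp and Tspan4 are filled in kidney, at 1.52, -1.36 and -1.005, and no point is filled in brain.

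The remaining labels were tested in liver because they do not depend on Arntl. Along the coat scale limma called 0 of 22519 probe sets (0.0%), with 499 at an unadjusted p under 0.05, and 0 with unordered classes (794 unadjusted), so no listed gene passed. Mice numbered 2 differed from those numbered 1 at 2334 probe sets (10.4%), 1108 up (4.92%) and 1226 down (5.44%) in limma. The count was 1211 without mottled 1, 1417 without slightly mottled 1 and 1423 without heavily mottled 1. Of the clock lists, Hlf (0.93 ± 0.14), Rora (0.61 ± 0.14), and the Kruppel-like factors Klf13 (1.11 ± 0.22) and Klf15 (0.67 ± 0.18) rose in number 2. Of the 22 kept cholesterol genes 3 fell, among them Msmo1 (-1.15 ± 0.22) and Mvd (-0.97 ± 0.28), and Sqle, Lss, Cyp51 and Idi1 did not pass (limma adjusted p from 0.196 to 0.713). Of the 23 kept genes of fatty acid and triglyceride synthesis 5 fell, among them Me1 (-0.83 ± 0.19), Acly (-0.73 ± 0.20), Elovl6 (-0.69 ± 0.16) and Fasn (-0.47 ± 0.13). Foxo1, a factor that insulin inhibits, rose (1.001 ± 0.21). Arntl (0.06 ± 0.58), Dbp (0.37 ± 0.96), Cyp7a1 (-0.19 ± 0.37), Usp2 (1.44 ± 0.83), Alas1 (0.79 ± 0.82) and Lpin1 (1.68 ± 0.57) did not pass, with limma adjusted p from 0.0778 for Lpin1 to 0.967 for Arntl. Whether the difference between the sides was unequal in the 2 numbers was not tested.

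The arrays gave no detection calls, and their number limits the precision. Median liver signals were 105.2 to 144.6 on the Arntl-high and 115.4 to 144.3 on the Arntl-low side. In liver the 3 prime to 5 prime ratio of Actb was 1.40 to 2.01 and 1.31 to 2.71, with the highest value in heavily mottled 2. No 2 arrays held the same values, and the highest correlation between any 2 was 0.978.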

How the data were processed

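Affymetrix Mouse Genome 430 2.0 arrays measured liver, kidney and brain RNA of 10 mice. The deposited values are linear probe set intensities made with MAS5, per the submitters' processing notes, whose version is not given in the sources used here. Each array's trimmed mean (2% off each end) was 500.0, so arrays are scaled to a common level and a shift of most genes would not show. No detection calls were used.

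Of 45101 probe sets, 64 controls were left out. Signals were taken as log2(signal + 16), which gives smaller folds for dim genes than the signals themselves. Probe sets with a tissue mean at or above the median were kept (22519 per tissue). Of the probe sets, 34945 had 1 gene symbol in the platform annotation, 932 several and 9160 none; only those with 1 were named, and 34741 matched RefSeq by Entrez ID. A listed gene was represented by its brightest probe set in liver. Levels of different probe sets were not compared.

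The members and lists were chosen with earlier results of these data known, and the adipose and choroid plexus lists for kidney and brain after seeing the data. Genes to be named were the 4 markers, all kept clock genes, up to 5 members of each other list with the largest difference, the 12 largest differences in each direction without overlap, the 8 highest and 8 lowest r with Arntl, and listed genes called in another fit. Not every gene selected in this way is described. Members that did not overlap, and members followed into other tissues or numbers, were named as well, after their values were seen, as were Noct, Gys2 and Ppard's second probe set.

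Kidney and brain sides, liver coat step and mouse number were tested with limma 3.58.1 (lmFit, eBayes with trend) in R 4.3.3, with Benjamini-Hochberg adjustment at 0.05 over all kept probe sets. Single markers were tested by exact permutation (scipy 1.17.1, Python 3.11.15). Both were tested on simulated data. SEs in liver come from the spread within sides. The labels do not say what the numbers 1 and 2 mark, beyond telling mice of a class apart. Each value is 1 array of 1 mouse. Alternatives were offsets of 1 and 64, no filter, quantile normalisation, probe sets without shared-sequence suffixes, a replicate block, a coat covariate and leaving out each mouse.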

Additional observations from a re-analysis of the deposited data

Results flagged for a closer look

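In 21 of 354 sets of 4 or 6 livers checked, 1 mouse lay far from the others of its side by Dixon's test. Chance marks about 1 in 20 sets that were not chosen on their values. Many of these genes were chosen by differences or r in the same livers, so that rate need not hold here.

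Slightly mottled 2 stood apart on the Arntl-high side in Bhlhe40 (967.0, others 2001.6 to 2239.7), Coq10b (2462.7, others 1105.6 to 1146.3), Acacb (453.6, others 963.5 to 1073.4) and Gclc (4217.2, others 6417.0 to 6912.7). Mottled 1 stood apart in Nnmt (557.2, others 123.8 to 157.7) and in the pericentral genes Slc1a2 (330.9, others 829.9 to 913.2) and Glul (5665.5, others 8940.0 to 9802.9). Mottled 2 stood apart in Gnmt (21099.1, others 26755.1 to 28045.4) and in 1 Lgalsl probe set (2627.0, others 1443.1 to 1493.7).

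On the Arntl-low side, heavily mottled 2 stood apart in Gulo, the vitamin C synthesis enzyme (1401.6, others 8885.5 to 14866.4). It was also low in Ahsa1 (3819.2, others 5720.5 to 7079.3) and high in Hsd17b13 (7122.8, others 4318.9 to 4979.4), Btg1 (4195.1, others 2407.8 to 2684.0), Gldc (3876.8, others 3040.2 to 3192.9) and Hadhb (18079.3, others 11529.8 to 13436.4). Pseudoagouti 1 was low in Acot2 (375.5, others 596.4 to 775.2) and in both Lgalsl probe sets (382.5, others 674.2 to 887.6, and 396.1, others 602.0 to 739.2). It was also low in Rhbdd2 (74.8, others 226.6 to 257.8) and high in Spata5 (286.0, others 182.6 to 216.4). Lgalsl, Btg1, Gldc and Spata5 were named for their r with Arntl in these livers, so their flags are not free of that choice. Slightly mottled 1 was low in the metallothionein Mt1 (5473.4, others 17441.3 to 27834.4).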

How the results depend on the processing

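In kidney the count called was 3 with an offset of 64, 2 after quantile normalisation and 2 without suffixed probe sets, and 0 to 4 when each mouse was left out. In brain these were 8, 2 and 1, with 2 without the filter, and 0 to 163. With the replicate block, kidney gave 4 and brain 480; the labels do not say that the number pairs mice, and what the block takes up was not tested. The block could not be applied to the fit of number itself and gave 0 along the coat scale, where each mouse left out also gave 0. The number fit gave 1282 without suffixed probe sets, which tests fewer, and 1211 to 2262 with each mouse left out. In liver, probe sets above in every Arntl-high mouse were 225 without the filter, 292 within the replicate block, 26 at a difference of at least 1, and 163 to 422 with each mouse left out; those below were 327, 402, 20 and 252 to 484. Leaving out a mouse, or comparing within the block, asks for fewer mice not to overlap, which by construction lets more probe sets pass. Of 43 named probe sets without overlap, 36 had none after quantile normalisation either; other offsets, no filter and leaving out a mouse cannot create an overlap and are no check of this. Of the named genes, 3 differences moved by more than the spread between mice: Npas2 (1.51 with an offset of 64), Scp2 (0.03) and Cps1 (-0.08), the last pair after quantile normalisation. Of the list medians, 486 values stayed within that spread and 9 did not, most of them after quantile normalisation. It took the medians of hepatocyte markers, amino acid breakdown and drug metabolism to 0.00, 0.02 and 0.01, and turned the sign of those of lipid droplets (-0.16), fatty acid oxidation (-0.06) and periportal genes (-0.06), as of Cps1. With 10 arrays and no detection calls, signals near the filter have the least support.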
